A study of Homo sapiens with 12 samples.

Results

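The 41 genes described here encode factors that build ribosomes: the enzymes and core proteins of the small nucleolar ribonucleoproteins (snoRNPs), the RNA polymerase I machinery, abundant nucleolar proteins, and assembly factors of the small and large ribosomal subunits. They were taken by symbol from a fixed list, which was chosen with earlier results of these data known. All 41 were among the 16271 gene IDs of the count table, and all 41 were among the 14676 genes with enough counts to be tested, so no member was lost to the filter on low counts. The cells were HaCaT, an immortalised line of human keratinocytes, either wild type or with the vitamin D receptor gene VDR knocked out. Each genotype was sequenced untreated and after 8 h with 1,25(OH)2D3, the active hormone that VDR binds, with 3 libraries of total RNA in each of the 4 groups. All 4 groups were grown in the same serum-containing medium, the replicates were wells of culture plates, and the untreated groups are labelled as minus vitamin D. The sources used here do not say how the knockout was made, how many clones it holds, the hormone dose or whether the untreated wells had a vehicle. The comparisons therefore were the hormone in each genotype, the knockout against wild type at each treatment, and the difference between the hormone responses of the genotypes.

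Ribosomes are made mostly in the nucleolus, where RNA polymerase I transcribes the long precursor of the ribosomal RNAs (rRNAs). The precursor is then modified at many positions by snoRNPs, cut, folded and joined to ribosomal proteins by a succession of helicases, GTPases, nucleases and scaffold proteins, most of which leave before the subunits enter translation. The work is matched to cell growth, and MYC, a transcription factor that binds DNA with its partner MAX, is known to drive many of these genes.

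Total counts were 11485031 to 15992792 per library. VDR transcripts were still counted in the knockout, at 77.6 ± 4.07 untreated against 103 ± 3.81 in untreated wild type cells and at 82.8 ± 3.02 treated against 71.0 ± 3.62 (SD, n = 3), in counts over the TMM-scaled library total (CPM); VDR transcript therefore does not mark the knockout here. CYP24A1, the hormone-degrading enzyme gene that is the classical VDR target, averaged 48.0 ± 2.88 CPM in wild type cells without hormone and 1676 ± 61.1 with it, against 16.9 ± 4.83 and 12.2 ± 0.232 CPM in the knockout. All 12 keratinocyte markers checked were counted in every group, but their summed level was 4239 to 5197 CPM in untreated and 4497 to 4720 CPM in treated wild type libraries, against 1907 to 1927 and 1664 to 1814 CPM in the knockout. Untreated, DSG3 was higher in the knockout, at 126 to 143 CPM against 57.0 to 62.4 in wild type. PERP overlapped, at 139 to 152 against 122 to 163 CPM, and every other keratinocyte marker checked was lower in the untreated knockout. Of 20 markers of melanocytes, fibroblasts, endothelium, leukocytes, liver and gut, 6 were in the table, and their summed level was 17.6 to 30.3 and 24.6 to 34.6 CPM in wild type and 14.6 to 16.9 and 11.0 to 15.7 CPM in the knockout. PTPRC, PECAM1, MLANA, COL1A2 and ALB were not among the counted genes. Untreated wild type replicate 3 stood apart for these genes: it was the replicate farthest from the others for 28 of the 41 members, the highest of its group for 17 and the lowest for 20.

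The whole group of transcripts took a smaller share of the RNA in the knockout. Together the 41 members held 0.67%, 0.64% and 0.646% of all counts in untreated and 0.602%, 0.629% and 0.608% in treated wild type libraries. In the knockout they held 0.444%, 0.462% and 0.462% untreated and 0.442%, 0.479% and 0.495% treated. Every knockout library lay below every wild type library. These are shares of each library, so the amount of RNA per cell is not measured, and in bulk RNA fewer cells with a transcript and less of it per cell cannot be told apart. Per kilobase of exon, NPM1 was the most abundant member in untreated wild type cells, at 217 ± 24.7 CPM per kb (SD, n = 3), followed by MYBBP1A at 108 ± 8.02, NOP58 at 84.4 ± 11.63, NCL at 82.8 ± 10.1 and DDX21 at 76.7 ± 7.95. NOP58, NCL and DDX21 did not differ beyond their spread. RRN3 was the lowest, at 1.52 ± 0.36 CPM per kb, below WDR12 at 5.14 ± 0.68 and NIP7 at 6.84 ± 0.37. In the untreated knockout NPM1 was still first, at 173 CPM per kb, while MYBBP1A, at 41.7 ± 2.69, was below NOP58 at 74.1 ± 3.09 and NCL at 60.3 ± 3.98 and within the spread of DDX21 at 43.4 ± 1.77. BOP1 has no level per kilobase here, because its gene ID was not matched to the annotation used for lengths.

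**Figure D1:**
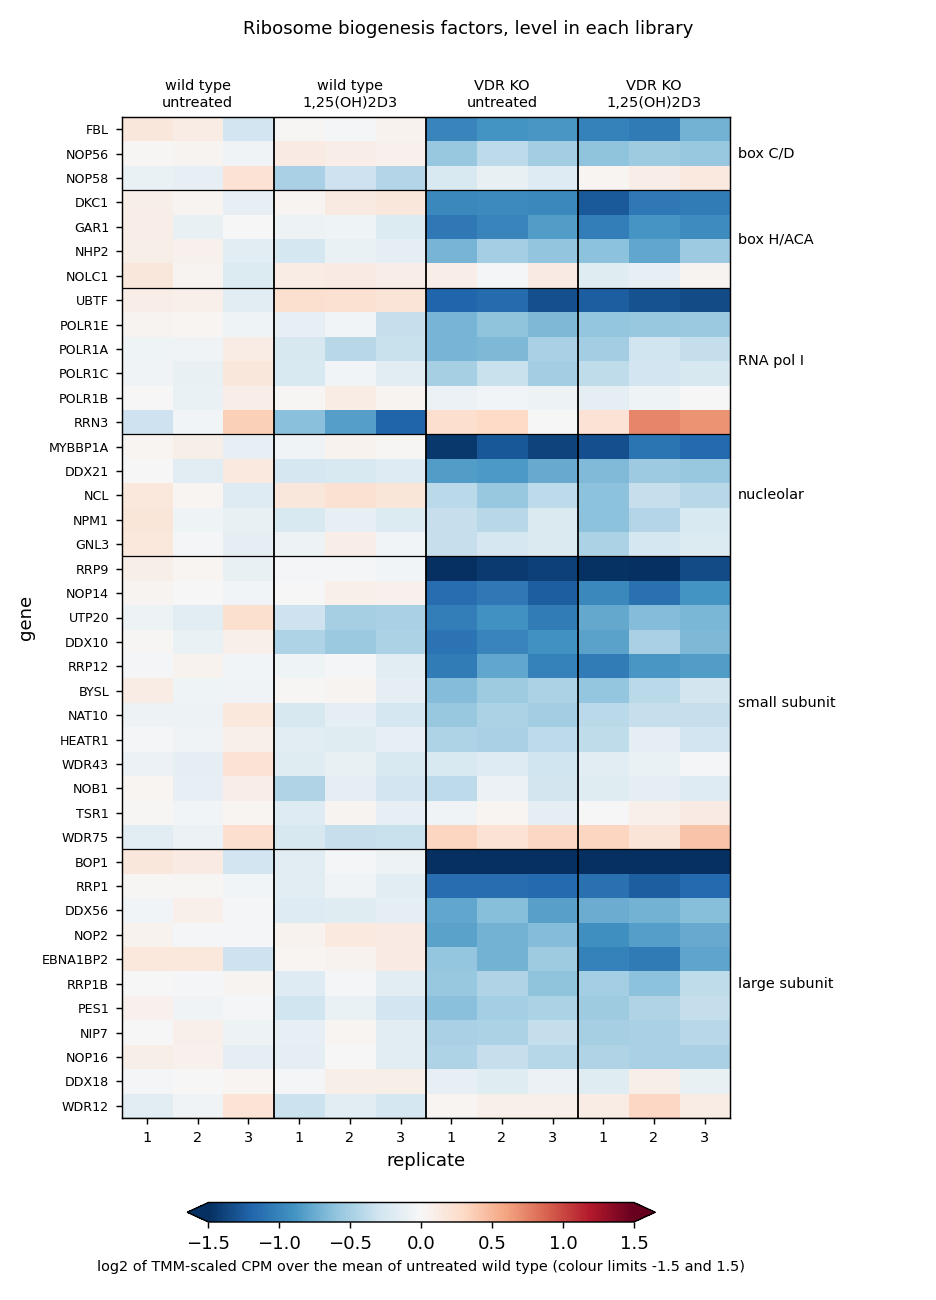
Each row is a member, grouped by role, and each column a library; colour gives the log2 of the TMM-scaled CPM over the mean of the untreated wild type libraries, with blue for lower. In the knockout columns blue rows prevail in every role, with BOP1, RRP9, MYBBP1A and UBTF darkest, while RRN3 and WDR75 are red.

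The genotypes without added hormone were compared by setting untreated knockout against untreated wild type cells. Of the 41 members, 33 were lower and 1 was higher in the knockout (edgeR quasi-likelihood, Benjamini-Hochberg adjusted p below 0.05 over all 14676 genes). Of all genes tested, 34.2% were lower and 35.5% higher, so the share of members that were lower, 80.5%, stood well above the background and the share that was higher, 2.44%, well below it. Because the list was chosen with earlier results of these data known, these shares describe it and are no test. The median member had a log2 fold change of -0.54, against 0.01 for all genes tested. Lower members made up 2 of 3 box C/D proteins, 3 of 4 box H/ACA proteins and their chaperone, 4 of 6 RNA polymerase I factors, all 5 multifunctional nucleolar proteins, 10 of 12 small subunit factors and 9 of 11 large subunit factors. Leaving out single libraries gave 31 to 34 lower members. With the hormone present in both genotypes, 27 members were lower and 4 higher in the knockout, against 37.4% and 38.4% of all genes, and the median member was at -0.37. The comparisons share no libraries, but they share the genotypes compared and a fit with its spread, scaling and filter. In both, 26 members were lower and WDR75 was higher. A further 7 were lower untreated and did not pass with hormone, and 4 passed with hormone but not untreated: NOLC1, which was lower, and NOP58, RRN3 and WDR12, which were higher. The other 3 members, POLR1B, TSR1 and DDX18, passed in neither. Scaling by library size alone moved the median of all genes to 0.13 in both comparisons; the member median was then -0.42 untreated and -0.26 treated, with 29 and 23 members lower, and the untreated calls of NPM1, GNL3, WDR43 and NOB1 and the treated calls of NOLC1, NPM1, UTP20 and PES1 were lost. The keratinocyte marker sum also differed between the genotypes, as given above, and its part in these differences was not tested. The labels do not say whether the wells came from separate passages or days, so the p-values reflect the spread of these wells alone. The number of knockout clones is not given either, so the receptor's loss and other differences between the lines cannot be told apart.

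**Figure D2:**
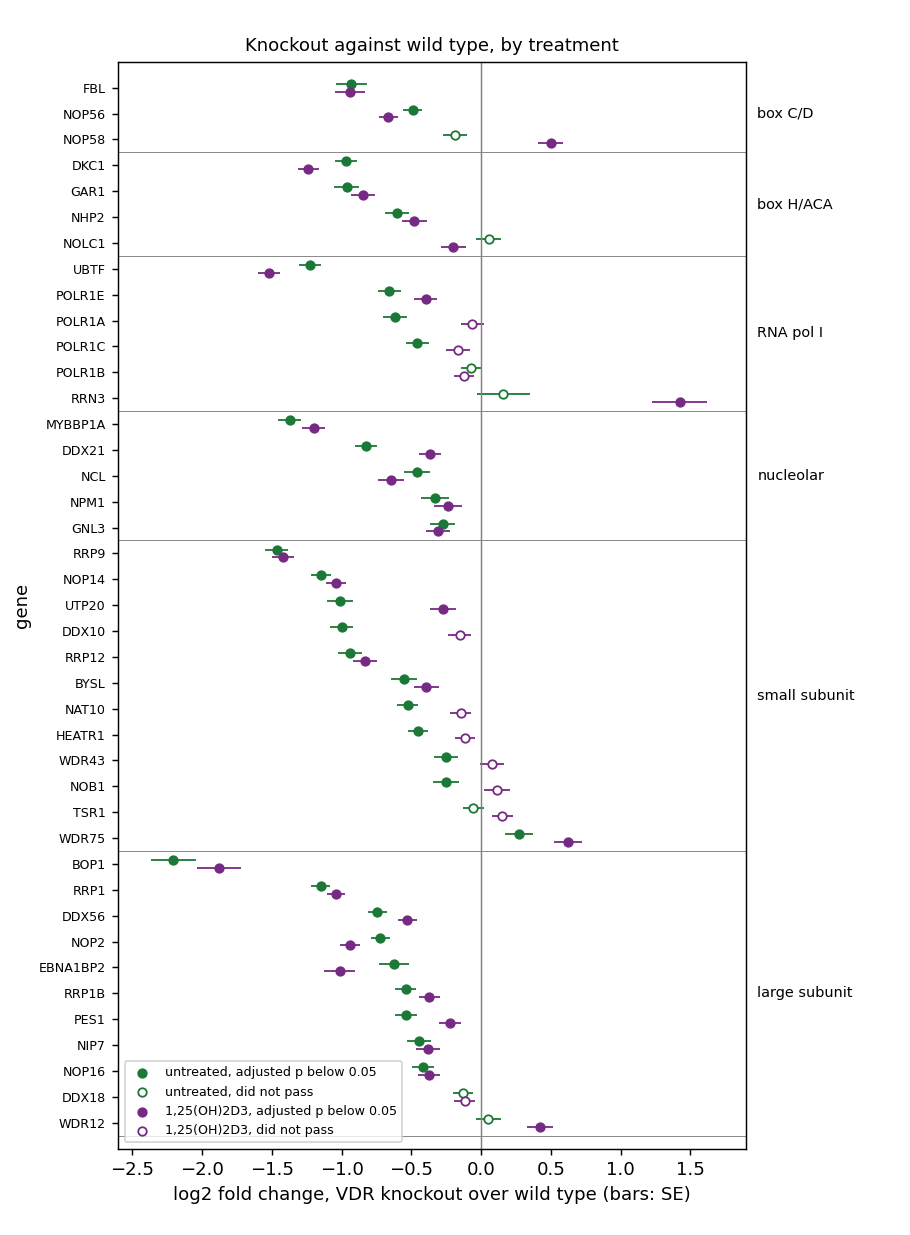
Points give each member's log2 fold change of knockout over wild type, green without and purple with hormone, bars the standard error, and filled points pass an adjusted p of 0.05. Most points lie left of 0 in each role, and RRN3, DDX10, UTP20, NOP58 and POLR1A show the widest gaps between the treatments.

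In the snoRNP classes, the enzymes were lower in the knockout at either treatment. FBL, the methyltransferase that box C/D snoRNPs guide to rRNA riboses, was at 109.6, 105 and 79.6 CPM untreated and 98.6, 96.0 and 101 CPM with hormone in wild type, and at 48.9, 52.2 and 53.2 CPM untreated and 47.9, 46.5 and 59.4 CPM with hormone in the knockout. All 6 knockout libraries were below all 6 wild type libraries, and the log2 fold change was -0.93 ± 0.11 untreated (SE) and -0.94 ± 0.11 treated. DKC1, the pseudouridine synthase of box H/ACA snoRNPs, showed 181, 175 and 156 CPM untreated and 175, 186 and 191 CPM with hormone in wild type and 87.2, 87.7 and 86.9 CPM untreated and 71.0, 81.3 and 82.1 CPM with hormone in the knockout. The 3 untreated knockout libraries were within 1 CPM of each other, and the genotypes did not overlap (-0.97 ± 0.08, adjusted p = 1.03e-08; treated -1.24 ± 0.08, 3.97e-10). GAR1, another core protein of that particle, was at 58.1, 50.3 and 54.3 CPM untreated and 51.4, 52.0 and 47.2 CPM with hormone in wild type and 25.8, 27.2 and 30.3 CPM untreated and 26.3, 29.2 and 28.2 CPM with hormone in the knockout. Every knockout library was again below every wild type one (-0.96 ± 0.09, adjusted p = 4.1e-08; treated -0.85 ± 0.09, 1.34e-07). NHP2, a further core protein of box H/ACA snoRNPs, differed by less (-0.61 ± 0.09 untreated, -0.48 ± 0.09 treated). NOP56 and NOP58 are partners in the box C/D particle. NOP56 was at 212, 215 and 201 CPM untreated and 228, 224 and 219 CPM with hormone in wild type and 141, 159.8 and 146 CPM untreated and 137, 144 and 141 CPM with hormone in the knockout. Every knockout library was below every wild type one at either treatment (-0.49 ± 0.07; treated -0.67 ± 0.07, adjusted p = 1.11e-07). NOP58 was at 258, 254 and 323 CPM untreated and 198, 223 and 203 CPM with hormone in wild type, and at 236, 256 and 242 CPM untreated and 281, 296 and 305 CPM with hormone in the knockout. Untreated genotypes overlapped (-0.19 ± 0.09, adjusted p = 0.0699), whereas all 3 treated knockout libraries were above all treated wild type ones (0.50 ± 0.09). NOLC1, a chaperone that escorts snoRNPs, was at 0.05 ± 0.09 untreated and was called lower with hormone (-0.20 ± 0.09, adjusted p = 0.0498). That call was lost without any 1 of 8 libraries (adjusted p from 0.0517 to 0.186), which are all but untreated wild type replicates 1 and 3, untreated knockout replicate 2 and treated knockout replicate 3.

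Among RNA polymerase I factors, UBTF was lower in the knockout at either treatment and RRN3 was higher with hormone. UBTF, the factor that keeps rRNA gene promoters open, was at 126, 125 and 105 CPM untreated and 139.6, 139 and 135 CPM with hormone in wild type, against 51.9, 52.9 and 47.4 CPM untreated and 50.1, 47.6 and 46.6 CPM with hormone in the knockout. The genotypes were far apart and the log2 fold change was -1.23 ± 0.08 (adjusted p = 8.9e-10) untreated and -1.52 ± 0.08 (5.33e-11) treated. POLR1A, the largest catalytic subunit, was at 93.4, 93.7 and 105 CPM untreated and 82.1, 73.1 and 77.5 CPM with hormone in wild type and 60.2, 61.0 and 69.6 CPM untreated and 67.8, 79.0 and 76.1 CPM with hormone in the knockout. Its untreated groups were separate (-0.62 ± 0.08) and its treated groups overlapped (-0.06 ± 0.08, adjusted p = 0.511). POLR1E, a subunit specific to polymerase I, was lower at either treatment (-0.66 ± 0.08 and -0.40 ± 0.08). POLR1C, which polymerases I and III share, was lower untreated (-0.46 ± 0.09) and did not pass with hormone, where the groups still did not overlap (-0.16 ± 0.09, adjusted p = 0.0917). POLR1B, the other catalytic subunit, was between 68.3 and 80.9 CPM in all 12 libraries and did not pass. RRN3, which carries the polymerase to the promoter, had the lowest counts of the members, 36 to 126 per library, and was at 5.00, 6.03 and 7.94 CPM untreated and 4.02, 3.51 and 2.70 CPM with hormone in wild type and 7.41, 7.66 and 6.18 CPM untreated and 7.23, 10.3 and 9.90 CPM with hormone in the knockout. With hormone all 3 knockout libraries were above all 3 wild type ones (1.42 ± 0.20, adjusted p = 5.41e-06). The value is uncertain, because near-identical copies can share its reads, and because RRN3 overlaps PDXDC1 on the opposite strand. Among the copies, RRN3P3 had 1513 to 2050 counts per library, RRN3P2 2 to 459 and RRN3P1 38 to 67.

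All 5 multifunctional nucleolar proteins were lower in the knockout at either treatment. MYBBP1A, a nucleolar protein that binds MYB and takes part in rRNA processing, was at 682, 713 and 615 CPM untreated and 643, 696 and 678 CPM with hormone in wild type and 245, 277 and 255 CPM untreated and 268, 313 and 297 CPM with hormone in the knockout. No knockout library came near a wild type one (-1.37 ± 0.08, adjusted p = 4.82e-10; treated -1.20 ± 0.08, 1.25e-09). DDX21, a helicase of rRNA transcription and processing, was at 386, 345 and 425 CPM untreated and 323, 327 and 335 CPM with hormone in wild type and 214, 211 and 228 CPM untreated and 243, 262 and 259 CPM with hormone in the knockout. Its genotypes were separate at either treatment, with the smaller distance after hormone (-0.82 ± 0.08 and -0.37 ± 0.08). NCL, or nucleolin, the abundant RNA-binding protein of the nucleolus, differed by -0.46 ± 0.09 and -0.65 ± 0.09. NPM1, the chaperone nucleophosmin, was at 940.0, 792 and 765 CPM untreated and 706, 761 and 718 CPM with hormone in wild type and 653, 619.7 and 715 CPM untreated and 539.8, 612 and 706 CPM with hormone in the knockout. Its treated groups all but touched, and both differences were small (-0.33 ± 0.10 and -0.23 ± 0.10). GNL3, the GTPase nucleostemin, was at -0.27 ± 0.09 and -0.31 ± 0.09. Scaling, gene length and single libraries moved some of these calls across the threshold. With scaling by library size alone and with limma, the untreated calls of NPM1 (adjusted p = 0.069 and 0.071) and GNL3 (0.132 and 0.139) and the treated call of NPM1 (0.24 and 0.21) were lost. Limma was run on CPM scaled by library size, so these fits share their scaling. With the trend for gene length removed, the treated calls of NPM1 (0.105) and GNL3 (0.229) were lost. Untreated, NPM1 missed the threshold without wild type replicate 1 (adjusted p = 0.0592), and GNL3 without that library (0.0773) or knockout replicate 1 (0.0534). Treated, NPM1 missed it without any 1 of 6 libraries (adjusted p 0.0544 to 0.214), namely each treated wild type one, untreated knockout replicate 1 and treated knockout replicates 1 and 2.

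Among the small subunit factors, the untreated knockout was lower for 10 of 12, and with hormone for 5 of 12. RRP9, a protein of the snoRNP that directs the early cuts of the precursor, lies at chr3:51933430-51941941 (GRCh38, minus strand) and had the smallest adjusted p of all members in the untreated comparison. It was at 84.8, 81.4 and 73.8 CPM untreated and 78.7, 79.0 and 77.9 CPM with hormone in wild type, against 26.9, 29.6 and 30.4 CPM untreated and 28.7, 27.8 and 31.5 CPM with hormone in the knockout. The genotypes were far apart, with 0.36 of the wild type level untreated (-1.47 ± 0.08, adjusted p = 1.32e-10; treated -1.42 ± 0.08, 1.22e-10). NOP14, a scaffold of the small subunit processome, was at 162, 158 and 154 CPM untreated and 158, 167 and 165 CPM with hormone in wild type and 71.5, 75.5 and 67.2 CPM untreated and 80.6, 72.7 and 85.1 CPM with hormone in the knockout. The knockout levels were below 90 CPM in every library and the wild type levels above 150 (-1.15 ± 0.07, adjusted p = 8.49e-10; treated -1.04 ± 0.07, 1.54e-09). RRP12, needed for export of the subunit precursors, was at 62.7, 66.0 and 61.6 CPM untreated and 60.8, 62.4 and 56.5 CPM with hormone in wild type and 30.6, 37.1 and 31.5 CPM untreated and 30.7, 34.7 and 35.4 CPM with hormone in the knockout. Here too the genotypes did not overlap (-0.94 ± 0.09, adjusted p = 5.41e-08; treated -0.83 ± 0.09, 1.6e-07). For these 3 factors the hormone responses of the genotypes did not differ past the threshold. They did for DDX10, a helicase of the small subunit pathway (chr11:108665025-108940930, plus strand), and UTP20, a large scaffold protein. DDX10 was at 293, 269.8 and 304 CPM untreated and 210.1, 196 and 207 CPM with hormone in wild type and 134, 145 and 154 CPM untreated and 166, 206 and 180.3 CPM with hormone in the knockout. Its untreated groups were far apart and its treated groups overlapped (-0.9997 ± 0.08, adjusted p = 2.14e-08; treated -0.15 ± 0.08, 0.107). UTP20 was at 126, 119 and 158 CPM untreated and 108, 94.7 and 94.7 CPM with hormone in wild type and 64.8, 70.7 and 64.3 CPM untreated and 77.9, 85.0 and 82.8 CPM with hormone in the knockout. The untreated groups were again far apart, and the treated groups were separate by less than 10 CPM (-1.01 ± 0.09, adjusted p = 6.8e-08; treated -0.27 ± 0.09, 0.0144). The treated call of UTP20 was lost without treated wild type or knockout replicate 1 (adjusted p = 0.0848 and 0.0628).

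BYSL, needed for small subunit maturation, was lower at either treatment (-0.55 ± 0.09 and -0.39 ± 0.09). The acetyltransferase NAT10 (-0.53 ± 0.07) and HEATR1 (-0.45 ± 0.07), which acts where rRNA transcription and processing meet, were lower untreated and did not pass with hormone, at -0.15 ± 0.07 and -0.11 ± 0.07. WDR43, another factor of that stage, and NOB1, the nuclease of the last cut, were lower untreated by small amounts (-0.25 ± 0.09 and -0.25 ± 0.09), and at 0.08 ± 0.09 and 0.12 ± 0.09 with hormone. WDR43 missed the threshold without untreated wild type replicate 3 (adjusted p = 0.0609) or knockout replicate 3 (0.0555), and NOB1 without untreated wild type replicate 1 or 3 (0.0612 and 0.052) or knockout replicate 1 or 3 (0.127 and 0.0678). TSR1, a late maturation factor, was between 115 and 142 CPM in all 12 libraries. WDR75, which works beside WDR43, was the exception. It was at 35.4, 37.4 and 47.5 CPM untreated and 33.8, 31.3 and 31.5 CPM with hormone in wild type and at 49.7, 46.2 and 49.2 CPM untreated and 49.8, 45.6 and 53.3 CPM with hormone in the knockout. Wild type replicate 3 overlapped the untreated knockout, and with hormone the knockout was higher throughout (0.27 ± 0.10, adjusted p = 0.0226; treated 0.62 ± 0.10). The untreated call was lost without untreated wild type replicate 1 or 2 (adjusted p = 0.115 and 0.0881) or knockout replicate 1 or 3 (0.0665 and 0.0574).

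Large subunit factors held the largest fall of any member. BOP1, which with PES1 and WDR12 forms a complex needed for large subunit rRNA, was at 362, 350.4 and 264 CPM untreated and 287, 315 and 305 CPM with hormone in wild type, against 71.9, 86.0 and 54.2 CPM untreated and 75.1, 80.5 and 91.01 CPM with hormone in the knockout. Its lowest wild type library was far above its highest knockout library, and the log2 fold change was -2.20 ± 0.16 (adjusted p = 1.08e-07) untreated and -1.88 ± 0.16 (2.89e-07) treated. PES1 differed by less, at 103, 94.7 and 96.7 CPM untreated and 79.4, 91.7 and 80.3 CPM with hormone in wild type and 63.3, 68.8 and 70.4 CPM untreated and 67.4, 71.6 and 76.8 CPM with hormone in the knockout. Its genotypes were separate at either treatment, by less than 3 CPM with hormone (-0.54 ± 0.08 untreated, -0.22 ± 0.08 treated). The treated call of PES1 was lost without treated wild type replicate 2 (adjusted p = 0.0774) or knockout replicate 1 (0.0869). WDR12 went the other way from its partners: at 41.8, 44.8 and 53.8 CPM untreated and 37.3, 41.4 and 38.8 CPM with hormone in wild type and 47.6, 49.1 and 48.9 CPM untreated and 50.2, 57.5 and 50.1 CPM with hormone in the knockout, it did not pass untreated (0.05 ± 0.09) and was higher in the treated knockout (0.42 ± 0.09). The members of this complex therefore had log2 fold changes from -1.88 to 0.42 with hormone.

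RRP1, a nucleolar factor of large subunit processing (chr21:43789513-43805293, plus strand), was at 108, 108 and 103 CPM untreated and 95.02, 102 and 94.1 CPM with hormone in wild type and 48.1, 48.0 and 47.3 CPM untreated and 48.9, 45.1 and 47.5 CPM with hormone in the knockout. Its knockout libraries lay within 4 CPM of each other and the genotypes were far apart (-1.15 ± 0.07, adjusted p = 2.52e-10; treated -1.04 ± 0.07, 5.09e-10). Its paralog RRP1B, at chr21:43659548-43696079 on the same strand, was lower by less (-0.54 ± 0.08 and -0.37 ± 0.08). NOP2, which methylates large subunit rRNA, was at 147, 139.7 and 138 CPM untreated and 147, 157 and 154 CPM with hormone in wild type and 81.0, 86.6 and 89.95 CPM untreated and 74.9, 80.0 and 83.7 CPM with hormone in the knockout. All knockout libraries were below all wild type ones (-0.72 ± 0.07, adjusted p = 9.2e-08; treated -0.94 ± 0.07, 2.67e-09). EBNA1BP2, an early large subunit factor, was at 153, 153 and 110.2 CPM untreated and 140.3, 142 and 149 CPM with hormone in wild type and 91.7, 83.9 and 94.7 CPM untreated and 68.2, 66.0 and 79.4 CPM with hormone in the knockout. Untreated wild type replicate 3 was well below its fellows and still above every knockout library (-0.62 ± 0.11; treated -1.01 ± 0.11, adjusted p = 3.37e-07). The helicase DDX56 was at 105, 114 and 106 CPM untreated and 95.02, 95.7 and 98.9 CPM with hormone in wild type and 63.0, 69.6 and 61.9 CPM untreated and 64.7, 66.6 and 69.5 CPM with hormone in the knockout. The genotypes were separate, with the treated wild type libraries all below the untreated ones (-0.74 ± 0.07, adjusted p = 6.29e-08; treated -0.53 ± 0.07). NIP7 and NOP16, small assembly factors, were lower by 0.44 and 0.42 on the log2 scale untreated and by 0.38 and 0.37 treated. DDX18, another helicase, was at -0.13 ± 0.07 and -0.12 ± 0.07 and did not pass.

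**Figure D3:**
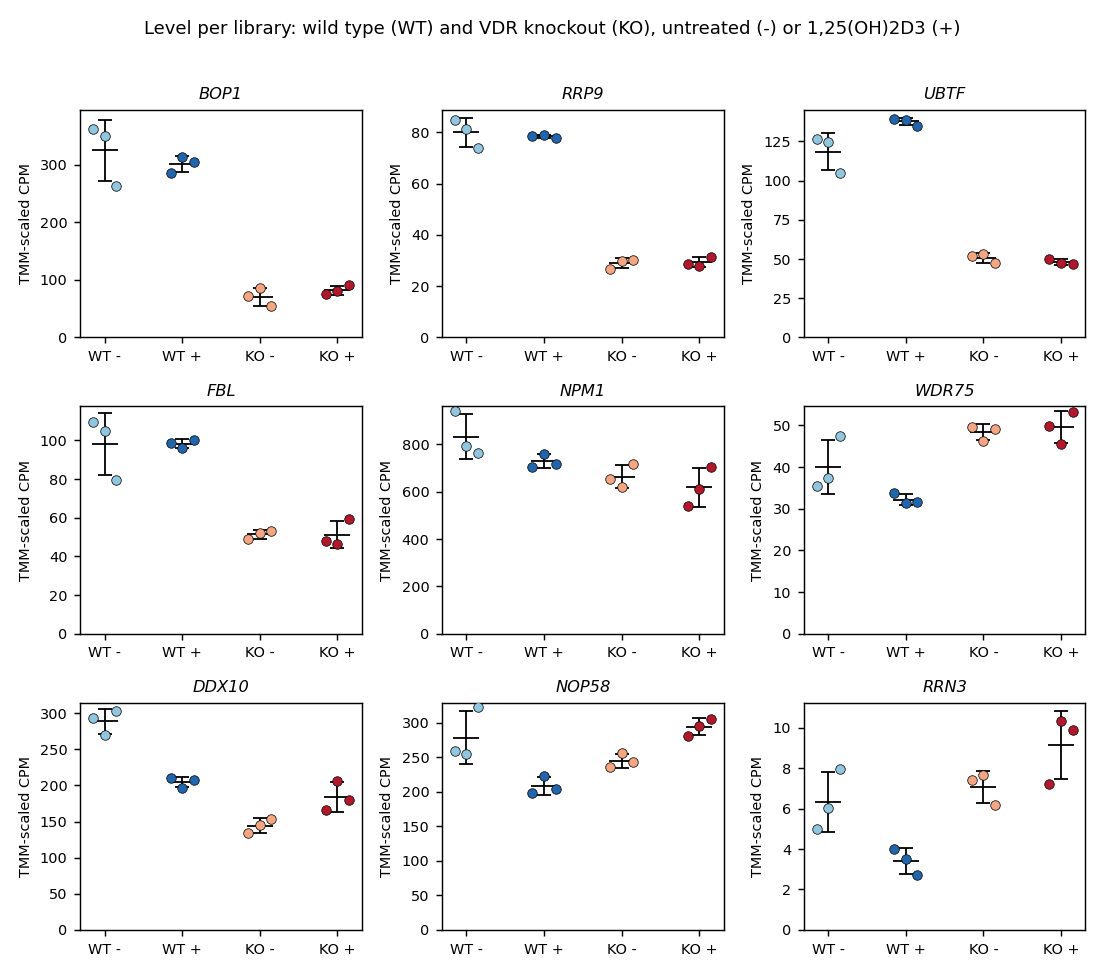
Each panel shows the TMM-scaled CPM of a member in the 12 libraries, as points, with the group mean and SD as bars, for wild type (WT) and knockout (KO) without (-) and with (+) hormone. BOP1, RRP9, UBTF and FBL separate by genotype at either treatment, NPM1 barely, and DDX10, NOP58 and RRN3 are lower with hormone in wild type but not in the knockout.

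What the hormone changed in cells that have the receptor was the next comparison. In wild type cells 10 members were lower and 1 higher after 8 h (edgeR quasi-likelihood, adjusted p below 0.05), against 13% and 11.5% of all genes tested. Lower members were thus 24.4% of the list and higher members 2.44%, and the median member was at -0.11 against -0.005 for all genes. The changes were small: apart from RRN3, no called member moved by more than 0.50 on the log2 scale. DDX10 fell from 289 ± 17.2 to 205 ± 7.29 CPM (SD, n = 3; -0.50 ± 0.08, adjusted p = 0.000648). NOP58 fell from 278 ± 38.4 to 208 ± 13.1 CPM (-0.42 ± 0.09, adjusted p = 0.00303), and UTP20 from 134 ± 20.5 to 99.0 ± 7.48 CPM (-0.44 ± 0.09, adjusted p = 0.00312). For each of these 3 genes all treated wild type libraries were below all untreated ones. RRN3 fell from 6.33 ± 1.49 to 3.41 ± 0.664 CPM (-0.89 ± 0.21, adjusted p = 0.00513), again without overlap. Its counts are low and may be shared with its copies, as given above. POLR1A (-0.33 ± 0.08, adjusted p = 0.00907), NOB1 (-0.29 ± 0.09, 0.0307), WDR75 (-0.32 ± 0.10, 0.0309), NAT10 (-0.22 ± 0.07, 0.038), DDX21 (-0.23 ± 0.08, 0.0404) and PES1 (-0.23 ± 0.08, 0.0429) fell as well. UBTF rose, from 119 ± 11.8 to 138 ± 2.46 CPM (0.22 ± 0.08, adjusted p = 0.0481). By role, 5 of 12 small subunit factors, 2 of 6 RNA polymerase I factors and 1 of 11 large subunit factors fell, and none of the 4 box H/ACA genes passed; their log2 fold changes ran from -0.17 to 0.11, and over all members 14 were lower and 1 higher at an unadjusted p below 0.05, against 19.2% and 17.7% of all genes.

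Single libraries weighed on the hormone calls. Without treated wild type replicate 1 or replicate 3, 5 members were lower. DDX10, NOP58, UTP20 and RRN3 kept their calls under every alternative tried. POLR1A missed the threshold without treated wild type replicate 2 (adjusted p = 0.0501). WDR75 missed it without untreated wild type replicate 3 (0.157) or any single wild type library with hormone (0.0513 to 0.106). NAT10 missed it without untreated wild type replicate 3 (0.119), treated replicate 1 or 3 (0.111 and 0.149) or untreated knockout replicate 1 (0.0519), and NOB1 without untreated or treated wild type replicate 1 or 3 (0.0717 to 0.149). PES1 missed it without untreated wild type replicate 1, treated wild type replicate 1 or 3 or treated knockout replicate 1 or 2 (0.0525 to 0.185). DDX21 missed it without any 1 of 8 libraries (0.0515 to 0.119), which are all but untreated wild type replicate 2, untreated knockout replicates 2 and 3 and treated knockout replicate 1. UBTF missed it without any 1 of 9 (0.0502 to 0.134), all but untreated wild type replicates 1 and 2 and untreated knockout replicate 3. Knockout libraries enter here because all libraries share the estimate of spread, the scaling and the filter.

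In knockout cells the same treatment gave 1 higher member, DDX10, and 0 lower, against 0.913% higher and 1.64% lower of all genes tested. DDX10 rose from 144 ± 10.1 to 184 ± 20.4 CPM, with all treated libraries above all untreated ones (0.35 ± 0.08, adjusted p = 0.0439). It missed the threshold without any 1 of 8 libraries (adjusted p 0.0612 to 0.232), all but the untreated wild type ones and treated knockout replicate 1. At an unadjusted p below 0.05, 9 members were higher and 1 was lower, against 9.96% and 11.4% of all genes. DESeq2 called 2 members higher and 0 lower, against 3.28% and 4.18% of all genes, and limma 1 and 0, against 0.654% and 2.51%. Without untreated wild type replicate 3, which enters through the shared spread, the scaling and the filter, 5 members were higher and 1 was lower, and the shares of all genes were 6.93% and 9.06%. The next members by adjusted p were UTP20 (0.30 ± 0.09, 0.0902), EBNA1BP2 (-0.34 ± 0.11, 0.0951), NOP58 (0.27 ± 0.09, 0.104) and DDX21 (0.23 ± 0.08, 0.115), none of which passed. The median member was at 0.05 and the range ran from -0.34 to 0.37. Over all genes 35.8% of the called genes were higher, and 20% with scaling by library size alone.

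Whether the hormone response differs between the genotypes was tested as the knockout response minus the wild type response. It was positive and passed for 11 members, and 0 passed in the negative direction, against 13.8% and 12.5% of all genes. At an unadjusted p below 0.05, 16 were positive and 4 negative, against 19.4% and 18.8% of all genes. DESeq2 called 11 and 0 members, against 13.9% and 12.2% of all genes, and limma 8 and 2, against 12.3% and 14%. Of the 11 members called by edgeR, NOB1 was called by neither, and PES1 and WDR12 not by limma. The median member was at 0.16, against -0.01 for all genes tested. DDX10 had the smallest adjusted p (0.85 ± 0.12, 0.000206): its level fell in wild type cells and rose in the knockout. UTP20 (0.74 ± 0.13, adjusted p = 0.000998), NOP58 (0.69 ± 0.13, 0.00109) and POLR1A (0.55 ± 0.12, 0.003) had a called fall in wild type and a positive value that did not pass in the knockout, as did RRN3 (1.26 ± 0.28, 0.00342), DDX21 (0.46 ± 0.11, 0.00666), NAT10 (0.38 ± 0.10, 0.0138), PES1 (0.32 ± 0.11, 0.0427) and NOB1 (0.37 ± 0.13, 0.0488). HEATR1 (0.34 ± 0.10, 0.0226) and WDR12 (0.37 ± 0.13, 0.0437) passed this test although neither genotype's own response did. All 12 small subunit factors had a positive difference, 5 of them past the threshold, while the box H/ACA genes had a median of -0.07 and none passed. UBTF and EBNA1BP2 had the most negative differences, -0.29 ± 0.11 and -0.39 ± 0.15, and did not pass (adjusted p = 0.0601 and 0.0698). Without untreated knockout replicate 1 or treated knockout replicate 2, 7 members were positive, and without untreated wild type replicate 1 or 2, 4 and 2 were negative, and 1 was without untreated or treated knockout replicate 3. HEATR1 missed the threshold without treated wild type replicate 2, untreated knockout replicate 1 or 2 or treated knockout replicate 2 (adjusted p from 0.0501 to 0.075). PES1 missed it without any 1 of 7 libraries (0.0556 to 0.133), all but untreated wild type replicates 2 and 3, treated wild type replicate 2, untreated knockout replicate 3 and treated knockout replicate 1. NOB1 missed it without any 1 of 9 (0.0734 to 0.14), all but replicate 2 of untreated wild type, treated wild type and untreated knockout, and WDR12 without any 1 of 9 (0.0518 to 0.126), all but untreated wild type replicates 1 and 2 and treated knockout replicate 3. The 7 others passed at the same threshold under every other fit tried; at an adjusted p below 0.01, 6 members were positive and NAT10 was not among them.

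**Figure D4:**
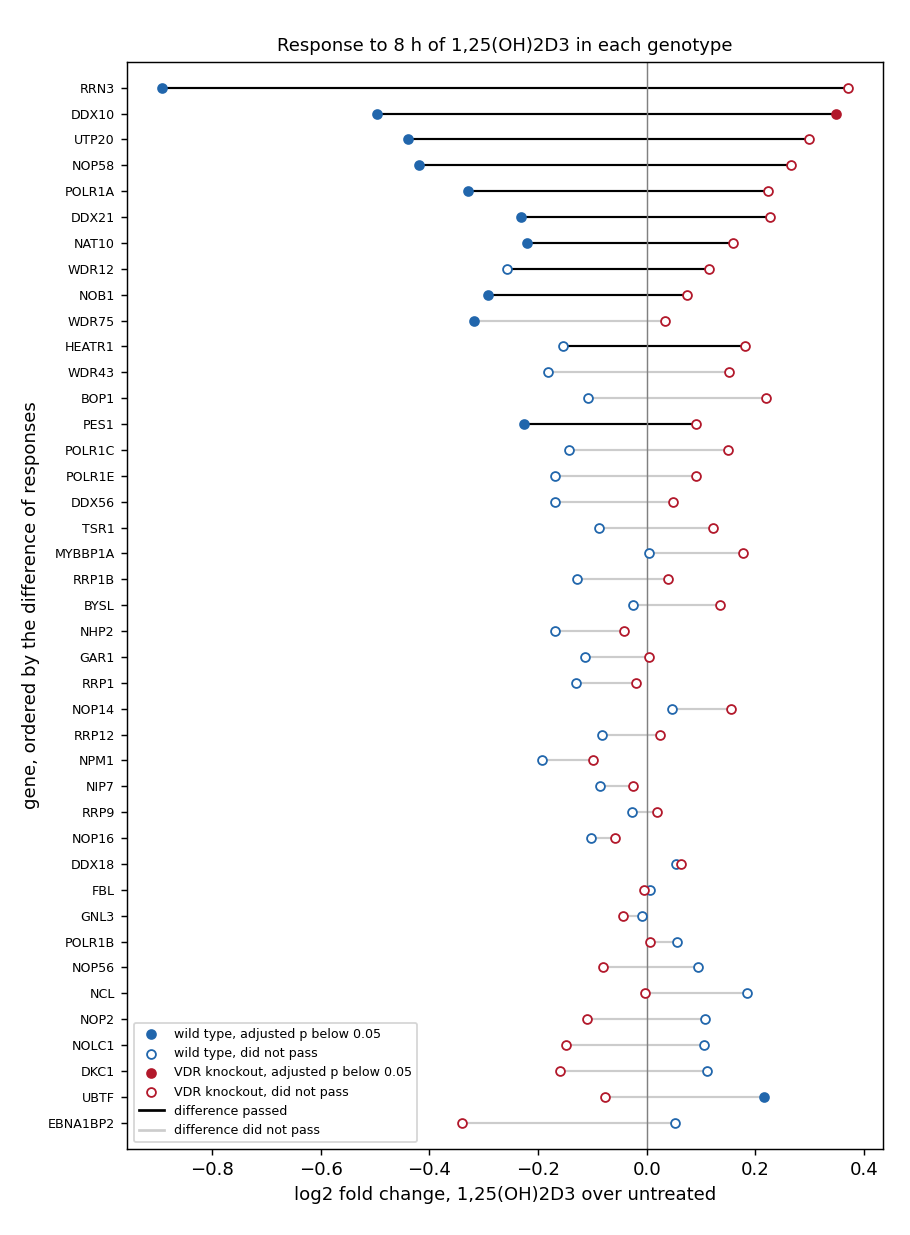
For each member, the blue point is the log2 fold change with hormone in wild type and the red point that in the knockout; filled points pass an adjusted p of 0.05 and a black line marks a difference that passes. At the top, from RRN3 to DDX21, the wild type points lie left of 0 and the knockout points right of it, and at the bottom UBTF and EBNA1BP2 are reversed.

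The rest of the pathway was described with a list of 133 further ribosome biogenesis factors, none of them a member. In the untreated knockout 77 were lower and 23 higher (57.9% and 17.3%, against 34.2% and 35.5% of all genes), with a median of -0.27, so the list as a whole lay between the members and all genes. The lowest adjusted p values were those of TBL3 (-1.52 ± 0.07, 4.01e-11) and NOC4L (-1.87 ± 0.09, 4.22e-11), both of the small subunit, and of URB1 (-1.13 ± 0.06, 2.22e-10) and PPAN (-1.54 ± 0.10, 1.11e-09) of the large subunit. Higher ones were led by NOP9 (0.54 ± 0.09, 5.73e-05), UTP15 (0.64 ± 0.12, 0.000147), the exonuclease ERI1 (0.39 ± 0.08, 0.000195) and the exosome subunit EXOSC8 (0.51 ± 0.10, 0.000206). Of the 16 exosome and end-processing genes in the list, 8 were higher and 3 lower. With hormone 51 were lower and 41 higher in the knockout (38.3% and 30.8%), the lower share being near the 37.4% of all genes and the higher one below their 38.4%. The lower ones were led by NOC4L (-1.64 ± 0.09, 9.97e-11), NOC2L (-1.39 ± 0.09, 5.59e-10), NOM1 (-0.97 ± 0.07, 9.18e-10) and DDX51 (-2.19 ± 0.13, 1.14e-09). Those higher were led by DDX47 (1.28 ± 0.09, 2.5e-09), FCF1 (1.12 ± 0.11, 7.92e-08), KRR1 (0.92 ± 0.09, 9.53e-08) and WDR74 (0.91 ± 0.10, 1.71e-07). In wild type cells 39 fell and 9 rose with hormone (29.3% and 6.77%, against 13% and 11.5% of all genes), with RPF2 (-0.75 ± 0.09, 6.69e-05), NOL10 (-0.64 ± 0.09, 0.000153), EXOSC7 (-0.43 ± 0.07, 0.000473) and DDX47 (-0.58 ± 0.10, 0.000503) first among the falls. EFTUD1, the GTPase that frees the new large subunit for translation, rose from 249 to 438 CPM on average (0.81 ± 0.09, 1.62e-05), and UTP3, TAF1C and DDX55 rose by 0.42, 0.36 and 0.27. Without treated wild type replicate 3, 20 of the list fell. In the knockout 7 rose, or 5.26% against 0.913% of all genes, and 0 fell (edgeR). DESeq2 gave 13 and 1, against 3.28% and 4.18% of all genes, and limma 6 and 0, against 0.654% and 2.51%. Unadjusted, at an edgeR p below 0.05, 28 rose and 8 fell, against 9.96% and 11.4% of all genes. The 7 rises called by edgeR were led by WDR74 (0.52 ± 0.09, 0.0129), NOL10 (0.44 ± 0.09, 0.0212), ESF1 (0.48 ± 0.10, 0.0225) and NVL (0.43 ± 0.09, 0.0227). That count was 0 without untreated knockout replicate 1 or treated knockout replicate 2 or 3, 2 without untreated knockout replicate 3 or treated knockout replicate 1, 4 without any single wild type library with hormone and 24 without untreated wild type replicate 3.

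Of 14 regulators of ribosome synthesis, 7 were lower and 4 higher in the untreated knockout, that is 50% and 28.6% against 34.2% and 35.5% of all genes. MYC was lower there, at 49.2 ± 6.42 CPM against 117 ± 19.9 CPM in wild type cells (-1.25 ± 0.12, adjusted p = 2.63e-07), and was at 38.5 ± 4.14 against 98.0 ± 4.52 CPM with hormone (-1.35 ± 0.12, 9.24e-08). EIF4EBP1, a translation repressor that MTOR controls (-1.01 ± 0.07, 9.27e-10), MTOR itself (-0.72 ± 0.07, 1.92e-07) and MLX (-0.66 ± 0.08, 8.23e-07) were lower as well in the untreated knockout. Of the competitors of MYC for its partner MAX, MXD1 (1.12 ± 0.09, 1.98e-08) and MXD3 (1.44 ± 0.13, 4.76e-08), were higher, as was the kinase gene RPS6KB1 (0.68 ± 0.09, 2.71e-06). MXD4, of the same family, was lower (-1.24 ± 0.31, 0.00424), and MXI1 (0.20 ± 0.18) and MNT (0.02 ± 0.07) did not pass. With hormone 6 regulators were lower and 5 higher in the knockout (42.9% and 35.7%), near the 37.4% and 38.4% of all genes. The hormone did not change MYC past the threshold in wild type (-0.25 ± 0.12, adjusted p = 0.135) or knockout cells (-0.35 ± 0.12, 0.127), and the difference of the responses was -0.10 ± 0.17 (0.712). In wild type cells MAX (-0.34 ± 0.07, 0.00215), RPTOR (-0.31 ± 0.07, 0.00563) and MLX (-0.22 ± 0.08, 0.0415) fell with hormone. None of the 14 passed with hormone in the knockout by edgeR. MYC (-0.35), MAX (0.19) and MTOR (0.19) had an unadjusted p below 0.05 there, as did 9.96% of all genes upward and 11.4% downward.

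Since most members were lower together in the knockout, their promoters were read for short motifs. RefSeq (GRCh38.p14) gave 34 members a window of 300 bases, from 250 before to 50 after the transcription start; no entry was used for NOP58, NOLC1, POLR1E, RRP12, BOP1, RRP1B and DDX18. The E-box CACGTG, the sequence that MYC with MAX and related factors bind, was present in 11 of the 34 windows (32.4%), against 7.43% of 27305 promoters of the same length. The ETS core CCGGAAG, searched on both strands, was also in 32.4%, against 10.7%, and the palindrome TCGCGA in 17.6% against 3.16%. CCAAT was in 32.4% against 35.7%, TATAAA in 2.94% against 12% and the nuclear receptor half-site AGGTCA in 8.82% against 13.9%. The promoters compared were not matched to the members for GC content or for being expressed in these cells. The part of base composition in these shares was not tested. The members with an E-box were FBL, MYBBP1A, NOP14, RRP9, UTP20, WDR43, NAT10, BYSL, PES1, NOP2 and EBNA1BP2. All 11 were lower in the untreated knockout, with a median log2 fold change of -0.72, and of the 23 others 18 were lower and 1 higher, with a median of -0.46; these are counts, with no test. The windows below belong to the member with the smallest adjusted p of each role in that comparison, so that promoters with and without the E-box can be compared, each 5′ to 3′ on the gene's strand with the E-box in capitals.
FBL (chr19:39846330-39846629, minus strand): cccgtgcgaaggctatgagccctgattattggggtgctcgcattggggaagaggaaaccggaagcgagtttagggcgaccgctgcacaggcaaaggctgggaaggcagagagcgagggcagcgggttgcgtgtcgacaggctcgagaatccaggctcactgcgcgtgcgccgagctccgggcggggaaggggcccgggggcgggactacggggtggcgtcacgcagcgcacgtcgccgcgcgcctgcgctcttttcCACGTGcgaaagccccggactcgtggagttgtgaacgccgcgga
DKC1 (chrX:154762614-154762913, plus strand): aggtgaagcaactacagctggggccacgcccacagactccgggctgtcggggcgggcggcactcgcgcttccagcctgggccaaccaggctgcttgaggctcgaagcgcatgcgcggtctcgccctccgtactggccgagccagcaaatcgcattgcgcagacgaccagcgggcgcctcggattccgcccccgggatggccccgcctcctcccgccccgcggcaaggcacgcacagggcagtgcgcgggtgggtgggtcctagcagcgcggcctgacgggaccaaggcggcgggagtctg
UBTF (chr17:44220833-44221132, minus strand): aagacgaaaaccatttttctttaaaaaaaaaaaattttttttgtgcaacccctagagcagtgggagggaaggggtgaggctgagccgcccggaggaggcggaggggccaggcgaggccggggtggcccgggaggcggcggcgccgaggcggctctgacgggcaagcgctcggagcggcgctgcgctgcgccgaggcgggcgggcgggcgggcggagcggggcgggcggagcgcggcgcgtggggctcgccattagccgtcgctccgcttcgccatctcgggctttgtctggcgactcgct
MYBBP1A (chr17:4555335-4555634, minus strand): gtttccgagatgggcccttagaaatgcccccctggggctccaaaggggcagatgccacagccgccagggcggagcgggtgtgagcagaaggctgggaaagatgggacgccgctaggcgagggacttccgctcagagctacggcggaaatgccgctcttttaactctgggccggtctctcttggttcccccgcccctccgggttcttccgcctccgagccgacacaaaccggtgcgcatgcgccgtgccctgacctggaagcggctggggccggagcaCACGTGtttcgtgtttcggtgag
RRP9 (chr3:51941855-51942154, minus strand): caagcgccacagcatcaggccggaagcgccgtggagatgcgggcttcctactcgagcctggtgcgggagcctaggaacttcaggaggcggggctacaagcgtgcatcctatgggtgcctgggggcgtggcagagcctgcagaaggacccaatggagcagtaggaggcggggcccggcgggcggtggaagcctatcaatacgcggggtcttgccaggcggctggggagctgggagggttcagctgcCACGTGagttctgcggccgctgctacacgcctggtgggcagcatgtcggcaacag
RRP1 (chr21:43789327-43789626, plus strand): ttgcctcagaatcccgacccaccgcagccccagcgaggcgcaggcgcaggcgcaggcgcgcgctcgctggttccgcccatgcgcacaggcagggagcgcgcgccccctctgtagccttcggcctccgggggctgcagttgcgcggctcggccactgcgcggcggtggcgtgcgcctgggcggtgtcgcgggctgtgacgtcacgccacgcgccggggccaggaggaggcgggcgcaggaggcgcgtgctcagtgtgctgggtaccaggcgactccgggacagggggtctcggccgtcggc
In FBL, MYBBP1A and RRP9 the E-box lies within 28 bases of the annotated start, beginning at positions 7, 28 and -5 relative to it. DKC1, UBTF and RRP1 hold none in these windows, although UBTF and RRP1 were among the 5 members with the smallest adjusted p in the untreated knockout. A match is a run of letters and no measurement of binding.

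The members lie on many chromosomes, some of them close to each other, and most were lower than the genes around them. Fellow members inside a window, as with RRP1 and RRP1B, were counted among the neighbours. For 40 members with a position, tested genes within 2 Mb on each side had median log2 fold changes between -0.51 and 0.49 in the untreated knockout, with a median of -0.07 over the members. In 35 of 40 cases the member was below its neighbours' median. UTP20, at -1.01, had 13 tested neighbours with a median of 0.49, none of them lower in the knockout, and GAR1, at -0.96, had 11 with a median of 0.27. DKC1, by contrast, had neighbours at -0.51.

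**Figure D5:**
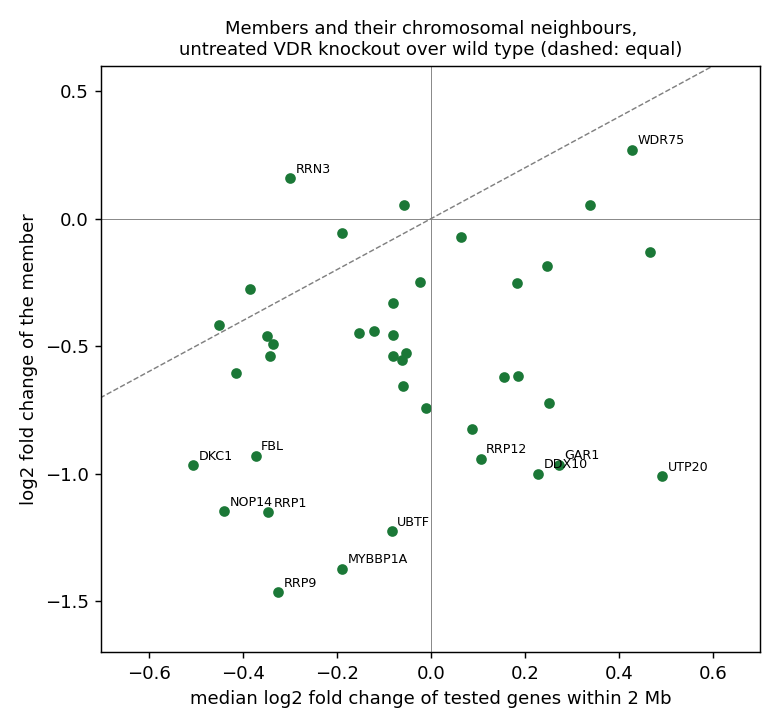
Each point is a member, with the median log2 fold change of tested genes within 2 Mb on the horizontal axis and its own on the vertical axis, for untreated knockout over wild type. The points lie mostly below the dashed line of equality, and UTP20, DDX10, GAR1 and RRP12 do so beside neighbours with medians above 0.

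Base composition and length went with the fold changes, across members as across all genes. Spearman's rho between transcript GC content and the knockout difference was -0.537 over 40 members and -0.389 over 14135 genes untreated, and -0.619 and -0.487 with hormone. The GC-rich members RRP9 (60.9%), MYBBP1A (60.9%) and RRP1 (60.7%) were among the lowest in the knockout, and WDR75 (37.7%) was the member that was higher. DDX10 (40.2%) and UTP20 (42.3%) went against the trend untreated, at -0.9997 and -1.01, so it does not hold for each member. With the GC trend of all genes removed, 35 of 40 members were lower untreated and 28 treated, against 35.8% and 37.9% of all genes. WDR75 was at -0.10 untreated, and in the treated comparison WDR12 was at -0.02, BYSL at 0.01 and PES1 at 0.26, and NOP58, NHP2, NOP16 and WDR75 no longer passed. Length of the gene on the chromosome went with the hormone responses: rho was -0.441 over members in wild type cells (all genes -0.234), 0.557 in the knockout (0.4) and 0.499 for the difference (0.358). DDX10, with the largest log2 difference after RRN3, has the longest gene of the members at 275906 bases. WDR12 (140017 bases, difference 0.37) and EBNA1BP2 (106762 bases, -0.39) have the next longest, so the relation does not hold for each member. With the trend for gene length removed, 15 members fell with hormone in wild type cells, against 13.5% of all genes, 0 passed in the knockout, and 17 had a positive difference, against 11.9%. With that trend removed BYSL, NOP16, NIP7 and NOLC1 no longer passed in the treated knockout (adjusted p = 0.0897, 0.357, 0.394 and 0.789), nor did NOB1 in the untreated knockout (0.0519). These correlations are across genes of the same 12 libraries, which are not independent replicates, and the origin of either trend was not tested.

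The authors' deposited enrichment tables list the same pathway. In the authors' deposited table for genes lower in the untreated knockout, ribosome biogenesis held 162 of 3405 listed genes against 318 of 10967 in the background (the authors' adjusted p = 2.77e-10), and preribosome held 46 of 3548 (1.3e-06). The direction of each table was read from the signs of its listed genes in the present fit, since at most 0.0446% of those in the lower tables were higher here. Of the members, 21 were listed under ribosome biogenesis and 13 under preribosome, each of them also lower in the edgeR fit. Both come from the same libraries, and the direction was read from this fit, so the match is no independent support. In the authors' deposited table for the hormone in wild type cells, the term held 51 of 840 genes that were lower, against 318 of 10954 (the authors' adjusted p = 0.00023), and 3 members. In the authors' deposited table for the treated knockout, rRNA metabolic process held 142 of 4413 lower genes, 18 members among them (the authors' adjusted p = 0.0522, above 0.05).

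Some counts carry a doubt about their origin. Small nucleolar RNA genes lie in introns of NOP56, NOP58, DKC1, NCL, GNL3 and WDR43 on the same strand and were counted separately, at 1.83 to 153 counts on average against 1602 to 6661 for their hosts. Other counted genes overlap NHP2, POLR1C, UBTF, RRN3, GNL3, MYBBP1A, NOP14, HEATR1, NOB1, TSR1, PES1, WDR12, NOP16, EBNA1BP2 and NIP7 on the opposite strand. The sources used here do not say whether the counting used strand, so reads of such pairs may not be separable. The partners with more counts than the member were PDXDC1 beside RRN3, RMND5B beside NHP2, XPO5 beside POLR1C, PBRM1 beside GNL3, ARL10 beside NOP16 and COG8 beside NIP7.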

How the data were processed

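Total RNA of 12 libraries was sequenced. Per the file headers the deposited tables hold, for each Ensembl ID with its symbol, whole-number counts and counts scaled to CPM by the authors; the deposited CPM equal each count over its library's total within 0.005. The authors' enrichment tables hold p-values per gene ontology term (clusterProfiler, per the file headers). The submitters' processing notes name BWA 0.5.9 and the mouse build mm9, although the IDs are human, so the build behind the counts is in doubt.

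Counts were tested with edgeR 4.0.16 (R 4.3.3) by robust quasi-likelihood fits with TMM factors (0.95 to 1.057), filterByExpr (1595 IDs set aside) and 1 mean per group over all 12 libraries; SE is the log2 fold change over the root of F. Benjamini-Hochberg adjustment ran over 14676 genes, and changes are called at an adjusted p below 0.05. Levels are TMM-scaled CPM, with SD over 3 libraries; depth bounds the precision most for RRN3. Positions, lengths and GC come from GENCODE release 29 (GRCh38), in which 15524 IDs were found by Ensembl ID. Promoters come from RefSeq (GRCh38.p14). DESeq2 1.42.0 and limma 3.58.1 (log2 of the deposited CPM, pseudocount 1), other scalings, filters and left-out libraries were the alternatives. The deposited CPM carry no TMM factor, so limma shared its scaling with the fit by library size alone. The scripts were tested on simulated data. All members could be named, with full statistics for the 12 with the smallest adjusted p, and from the other lists at most 4 in each direction, with MYC throughout. The members and lists were chosen with earlier results of these data known. One gene of the list of regulators is not reported here.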

Additional observations from a re-analysis of the deposited data

Results flagged for a closer look

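The hormone response differed between the genotypes, by the edgeR test of the difference (knockout minus wild type, adjusted p below 0.05), for 11 members. In log2 units the difference was 1.26 for RRN3, 0.85 for DDX10, 0.74 for UTP20, 0.69 for NOP58, 0.55 for POLR1A, 0.46 for DDX21, 0.38 for NAT10, 0.37 for WDR12, 0.37 for NOB1, 0.34 for HEATR1 and 0.32 for PES1. Of the 133 other factors 52 passed with a positive and 8 with a negative difference (39.1% and 6.02%, against 13.8% and 12.5% of all genes). Among those named, at most 4 each way, it was 1.14 for RPF2, 1.07 for NOL10, 0.95 for NVL and 0.81 for DDX47. On the negative side it was -0.58 for TAF1C, -0.57 for UTP3, -0.48 for NOC2L and -0.43 for DDX55. Among the regulators it was 0.53 for MAX, 0.40 for RPTOR and 0.38 for MTOR.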

How the results depend on the processing

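Calls that stood at an adjusted p below 0.05 under every alternative fit were 4 of 11 for the hormone in wild type, 0 of 1 in the knockout, 29 of 34 and 19 of 31 for the knockout against wild type untreated and treated, and 7 of 11 for the difference of responses. Trends with transcript GC and gene span were removed as alternatives chosen after seeing the data, over 40 members. Hormone in wild type: no member rose (0) with DESeq2 size factors or at an adjusted p below 0.01. None (0) rose with only the groups compared, or with the GC or span trend removed. Of the members 5 fell at 0.01 and 5 with only those groups. Of the other factors 3 rose and 22 fell at 0.01 and 24 fell with only those groups. Of all genes, 5.56% rose and 6.77% fell at 0.01, and 7.69% and 7.93% with only those groups. Hormone in the knockout: 2 members rose with DESeq2, 0 at 0.01 and 0 with the span trend removed. With only those groups 4 members rose and 1 fell. Of the other factors 13 rose and 1 fell with DESeq2 and 0 passed at 0.01. With only those groups 22 of them rose and 3 fell, and 12 rose with the GC trend removed. Of all genes, 3.28% rose and 4.18% fell with DESeq2, and 5.79% and 6.55% with only those groups. With the GC trend removed 1.67% of all genes rose. The member median was 0.11 with the span trend removed. Knockout against wild type, untreated: the member median was -0.4162 with library size alone and -0.4116 with limma. Of the other factors 35 were higher with limma and 8 with the GC trend removed, against 42.6% and 31.5% of all genes. No member (0) was higher at 0.01, with only those groups or with the GC trend removed. In these fits 30.1%, 33.1% and 31.5% of all genes were higher. Treated: the median was -0.2636, -0.2587 and -0.2482 with library size alone, limma and the span trend removed. With the GC trend removed 24 other factors were higher, against 34.1% of all genes. Difference: 2 members were lower with library size alone and 2 with limma, against 13.8% and 14% of all genes. At 0.01 6 members were higher, with 28 and 4 other factors higher and lower, against 7.13% and 5.96% of all genes. With the span trend removed 17 members were higher, against 11.9%. The member median was 0.2222 and 0.2838 with the GC and span trends removed. With the GC trend removed WDR75 turned to -0.0978 untreated, and BYSL to 0.0102, PES1 to 0.2557 and WDR12 to -0.0177 treated; NOLC1 turned to 0.0235 treated with the span trend removed, which also ended the treated calls of NPM1, GNL3, BYSL, NOP16 and NIP7; the cause was not tested. Library size alone and limma, which share their scaling, each ended the untreated calls of GNL3, NPM1, NOB1 and WDR43. Each also ended the treated ones of NOLC1, NPM1, PES1 and UTP20. Among genes called with hormone in the knockout, 35.8% were higher, against 20% with library size alone and 20.6% with limma. The replicate numbers did not pair the libraries (r over 0.1 in 1 of 18 same-number pairs, -0.175 to 0.121). With the replicate as a block 0 members and 4 other factors rose with hormone in the knockout and 1 member had a lower difference; the calls lost were those of NAT10 and PES1 (hormone in wild type), DDX10 (hormone in the knockout), NOLC1 and NPM1 (treated knockout) and NOB1 and PES1 (difference), and no other call of a member was lost with it.

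Leaving out 1 library at a time gave these ranges. Hormone in wild type: 0 to 1 members higher and 5 to 10 lower, 6 to 11 and 20 to 41 other factors, median -0.1417 to -0.0761. Hormone in the knockout: 0 to 5 and 0 to 1 members, 0 to 24 and 0 to 5 other factors, median 0.0195 to 0.1009. Untreated knockout: 0 to 1 and 31 to 34 members, 19 to 30 and 68 to 79 other factors, median -0.5689 to -0.5055. Treated knockout: 4 to 5 members higher and 23 to 31 lower, 36 to 43 and 50 to 56 other factors, median -0.4041 to -0.3318. Difference: 7 to 13 and 0 to 4 members, 31 to 54 and 5 to 11 other factors, median 0.0973 to 0.1949. Counts set the limit for RRN3, at 36 to 126 per library.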
